A study of Mus musculus with 30 samples.

Results

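The 8 genes described here are Nlrp3, Nlrp1b, Nlrc4, Pycard, Casp1, Casp4, Gsdmd and Nek7, which encode sensors, an adaptor, caspases, a pore-forming protein and a regulatory kinase of inflammasomes and pyroptosis. They were chosen by symbol from the 25611 gene rows of the deposited count table. All 8 were found, and all 8 passed the filter on low counts that left 14808 genes tested. Their RNA was measured in 30 sequencing libraries of mouse bone marrow cells differentiated for 6 to 7 days with FLT3L at 200 ng/ml, a culture that gives dendritic cells. The cells were wild type (WT) or carried a knockout of Rubcn (KO), a gene of LC3-associated phagocytosis. In each genotype some cultures stayed without treatment, and others received either OVA protein (ovalbumin, a soluble antigen) or Jurkat cells that had been made apoptotic. Jurkat is a leukaemia line of human T cells. Exposure lasted 30 min or 4 h. This gave 10 groups of 3 libraries, and all groups shared the FLT3L culture. The labels name neither the strain and age of the mice nor the form of the knockout allele. They give no time for the untreated cultures and name no vehicle control. In comparisons with untreated cells, treatment therefore cannot be told apart from handling or time in culture. The labels do not say whether the 3 libraries of a group came from separate mice or cultures, so the p-values measure only the spread between these libraries.

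An inflammasome is a complex in which a sensor such as NLRP3, NLRP1B or NLRC4 gathers pro-caspase-1, in most cases through the adaptor ASC, the product of Pycard. Caspase-1 then cleaves the precursors of interleukin-1β and interleukin-18, and also gasdermin D, whose freed part makes pores in the plasma membrane and so drives the lytic death called pyroptosis. In the non-canonical pathway mouse caspase-11, the product of Casp4, binds cytosolic lipopolysaccharide and cleaves gasdermin D directly. NEK7 is a kinase that binds NLRP3 and is needed for its activation. In dendritic cells and macrophages the RNA of Nlrp3 and Casp4 is known to be raised by signals that act through NF-κB and interferons, a step called priming. RNA levels carry no information on cleavage or pore formation, which were not measured.

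Library totals ran from 9734778 to 51642601 counts, with a median of 44906796. Levels are in CPM, counts relative to library sizes scaled by TMM, and are given as mean ± SD over 3 libraries unless said otherwise. Rubcn RNA was lower in KO than in WT cells in each of the 5 conditions with no overlap between libraries, for example 72.8 ± 2.74 against 98.9 ± 4.96 CPM without treatment, and a count over the whole gene checks the label only in part. The dendritic cell markers Flt3 (567 CPM), Itgax (486 CPM), Zbtb46 (88.7 CPM), Xcr1 (89.9 CPM) and Siglech (800.1 CPM) were present in untreated WT cells. There the macrophage markers Adgre1 and Csf1r stood at 226 and 359 CPM. The neutrophil marker Ly6g was near 0 (0.209 CPM), while S100a8 stood at 24.5 CPM and a sum of 10 neutrophil markers at 165 CPM. The sum of 11 T-lineage genes that were each below 1 CPM without treatment was 2.79 CPM in untreated WT cells, 23.4 CPM after 30 min with Jurkat cells and 66.6 CPM after 4 h. These 11 were picked by that low level from a longer list, and counts over the whole list after 4 h are given below. A pair of libraries stood apart. KO with Jurkat cells at 4 h, replicate 2, differed from its replicates by a chi-square per degree of freedom of 129 and 134, where other replicate pairs were at 2.28 to 16.6, and Rn45s, the precursor of ribosomal RNA, took 3.90% of its counts against 0.0949% to 0.384% in the 29 others. Without Rn45s and 2 further genes high in that library, the values of its pairs were 6.57 and 4.83. KO with Jurkat cells at 30 min, replicate 1, stood apart for Casp4. Many results that rest on either library are also given without it, while marker sums include both. How the counting treated reads from the human Jurkat cells is not given in the sources used here.

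The promoters of the 3 members with the largest rises after 4 h with Jurkat cells, and of the member that fell most, are shown because these genes moved furthest. Each is the 250 bases before the annotated start, 5′ to 3′ on the gene's own strand, from RefSeq's table for build GRCm38.p6. Capitals mark matches to the κB consensus, the motif bound by NF-κB. Casp4 lies at chr9:5308599-5308848 on the plus strand, Casp1 at chr9:5298267-5298516 on the plus strand, Nlrp3, for which the upstream of its 2 starts is shown, at chr11:59541319-59541568 on the plus strand, and Pycard at chr7:127993868-127994117 on the minus strand. The window of the other Nlrp3 start, chr11:59542436-59542685, is not shown. It lies directly before the start of Nlrp3 in the count table and held no match to the consensus.
Casp4: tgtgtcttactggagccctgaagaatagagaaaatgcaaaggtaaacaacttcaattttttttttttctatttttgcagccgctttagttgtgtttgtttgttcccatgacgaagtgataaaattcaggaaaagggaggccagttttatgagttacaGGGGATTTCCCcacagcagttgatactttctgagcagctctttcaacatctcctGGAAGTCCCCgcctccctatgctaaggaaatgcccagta
Casp1: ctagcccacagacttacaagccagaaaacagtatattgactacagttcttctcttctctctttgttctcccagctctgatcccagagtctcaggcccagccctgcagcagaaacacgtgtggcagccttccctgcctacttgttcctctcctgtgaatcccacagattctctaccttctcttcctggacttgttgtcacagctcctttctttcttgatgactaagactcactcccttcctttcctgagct
Nlrp3: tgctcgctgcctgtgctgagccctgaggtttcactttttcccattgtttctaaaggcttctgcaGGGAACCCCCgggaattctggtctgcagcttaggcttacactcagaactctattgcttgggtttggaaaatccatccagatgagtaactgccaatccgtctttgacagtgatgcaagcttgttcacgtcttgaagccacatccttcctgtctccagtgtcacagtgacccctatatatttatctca
Pycard: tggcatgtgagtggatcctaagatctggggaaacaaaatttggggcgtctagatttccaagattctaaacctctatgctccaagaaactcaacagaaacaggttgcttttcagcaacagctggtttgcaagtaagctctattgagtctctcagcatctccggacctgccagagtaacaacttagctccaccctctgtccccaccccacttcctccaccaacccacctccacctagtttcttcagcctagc
The Casp4 window held 4 overlapping or separate matches on either strand, from 93 to 83 and from 39 to 30 bases before the start, and the Nlrp3 window held 1 stretch that matched on both strands, from 186 to 177 bases before the start. The table had 10 windows for 7 of the 8 members, without Gsdmd, and 3 of the 10 windows matched, both of Casp4 and 1 of Nlrp3. The Casp4 windows overlap over most of their length and hold the same 4 matches, so they are not independent. Of 32851 windows of the same length in the table, 7.25% held a match. The consensus was searched after the sequences had been seen. No window of a member held GAAANNGAAA (2.98% of all windows, an interferon-response type of motif) or GGGANNTTCC (1.21%, a narrower κB type), read on both strands. A later search for GAAANNGAA (7.13%) and TTCNNNGAA (7.02%) also found none, and a wide GGGNNNNNCC, which overlaps the consensus, was in 5 of the 10 windows and in 45.8% of all. A match in a window of this kind describes letters and is not a site shown to be bound.

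Levels of different genes can be compared only per length, and for this CPM were divided by the summed length of protein-coding exons in GENCODE M21 within the bounds of each gene in the count table. In untreated WT cells Gsdmd stood highest at 67.6 ± 3.71 CPM per kb, followed by Pycard at 53.6 ± 1.66, Casp1 at 35.3 ± 1.66, Nek7 at 30.2 ± 2.14 and Nlrp3 at 17.7 ± 0.538 CPM per kb. Casp4 at 6.54 ± 0.206, Nlrc4 at 5.59 ± 0.227 and Nlrp1b at 3.41 ± 0.105 CPM per kb were the lowest. RNA of the adaptor, of the main pore-former and of caspase-1 was thus at higher levels per kb than that of any of the 3 sensors. In WT cells after 4 h with Jurkat cells this order had changed: Casp4 at 169 ± 14.4 and Gsdmd at 164 ± 7.74 CPM per kb were the highest, and Pycard, at 22.7 ± 0.894 CPM per kb, stood below Nlrp3 at 49.5 ± 2.66 and Nek7 at 26.9 ± 1.88 CPM per kb. These lengths depend on the annotation. They join the exons of all protein-coding transcripts of a gene, 2135 bases for Pycard, and can exceed the length of a single transcript. A shorter length would place Pycard higher, so its rank beside the other members is not settled by these values. Gm45205 lies on the other strand over 22.7% of the exon bases of Pycard, and Gm28501 over 2.51% of those of Nek7, and use of strand in the counting is not given in the sources used here. Of the 50-base runs of Nlrp1b transcripts, 1.45% also occur in other genes, mostly Nlrp1a, while Nlrp3, Casp1 and Gsdmd shared none. The share was 11.7% for Pycard, nearly all with Gm45205, and at most 1.64% for the others.

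**Figure D1:**
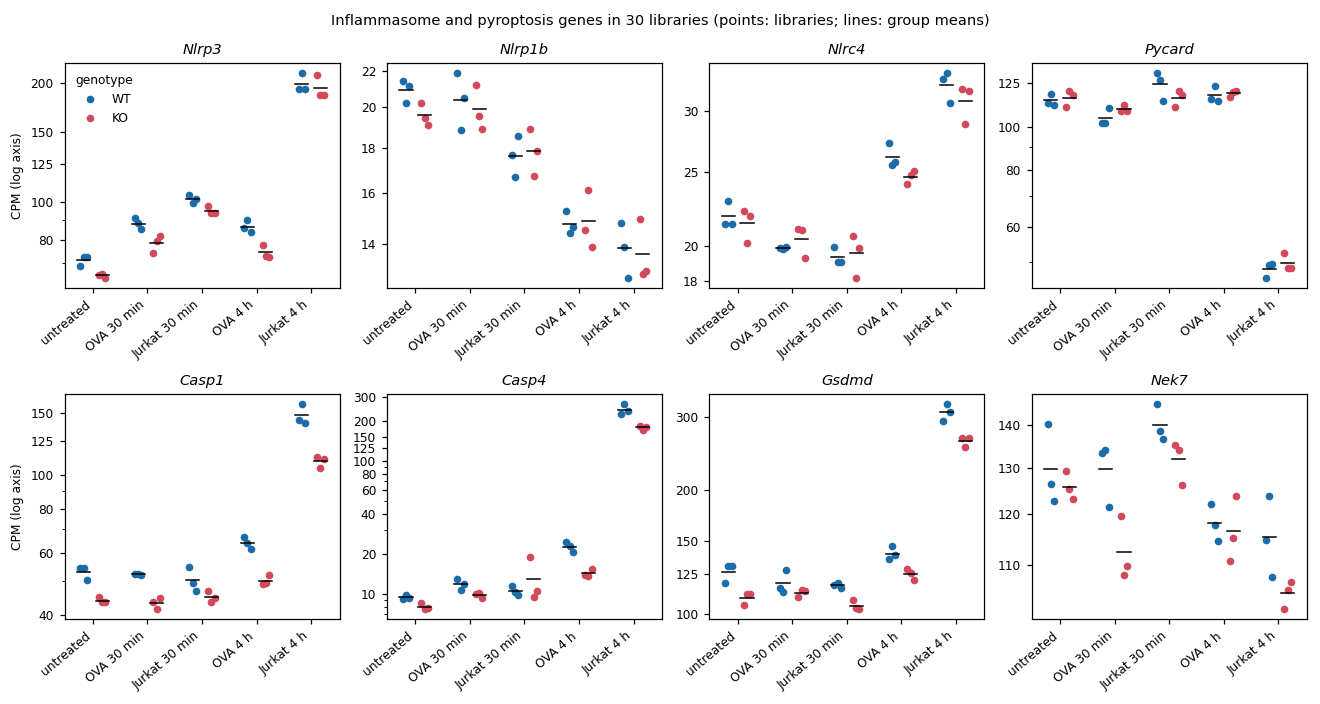
CPM (log axis) of each member in every library, by treatment on the x axis, with WT in blue and KO in red and black lines at the group means. Casp4 reached 171 to 266 CPM after 4 h with Jurkat cells against 7.71 to 9.72 CPM without treatment, and Pycard fell to between 46.2 and 52.5 CPM there.

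After 4 h with apoptotic Jurkat cells the RNA of all 8 members differed from untreated cells in both genotypes. Nlrp3, Nlrc4, Casp1, Casp4 and Gsdmd rose, and Pycard, Nlrp1b and Nek7 fell. By edgeR's quasi-likelihood test with a Benjamini-Hochberg adjusted p (FDR) under 0.05, 79.5% of all genes tested were called in WT and 78.5% in KO cells, so a count of 8 of 8 stands close to the background. The sizes differed widely between members. The median log2 fold change of the 8 was 0.92 in WT and 0.89 in KO, beside -0.02 and -0.03 over all genes tested. In the same libraries the summed markers of conventional dendritic cells went from 2647 to 1792 CPM in WT, those of plasmacytoid dendritic cells from 3208 to 4465 CPM, those of stroma from 595 to 862 CPM and those of basophils or mast cells from 26.7 to 62.4 CPM, none with overlap. The monocyte or macrophage sum stood at 4299 and then 3891 CPM, with overlap, and the T-lineage sum rose as given above. Single markers did not all follow their sums. In WT Zbtb46 went from 88.7 to 110 CPM and Xcr1 from 89.9 to 160 CPM. Siglech went from 800.1 to 717 CPM, with overlap. In KO without replicate 2, 3 conventional dendritic cell markers were called higher and 8 lower, and 5 plasmacytoid markers higher and 4 lower. Of the whole T-lineage list 16 were higher and 6 lower there, beside 35.8% and 39.3% of all genes. In bulk samples fewer cells of a type and less RNA per cell cannot be told apart, and the part of these shifts in the members' values was not tested. Without KO replicate 2 all 8 members stayed called in KO, with log2 fold changes of 4.51 for Casp4, 1.60 for Nlrp3, 1.34 for Casp1, 1.28 for Gsdmd and -1.20 for Pycard.

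Casp4 had the largest change of the 8 genes. In untreated WT cells it stood at 9.17, 9.72 and 9.27 CPM and in untreated KO cells at 8.46, 7.71 and 7.77 CPM. After 4 h with Jurkat cells the WT libraries held 225, 266 and 238 CPM and the KO libraries 184, 171 and 181 CPM. Every treated library was thus far above every untreated library, and the WT and KO ranges did not overlap after treatment. Casp4 rose 25.9-fold in WT (log2 fold change 4.69, SE 0.14, FDR 6.04e-23) and 22.4-fold in KO (4.48, SE 0.14, FDR 2.45e-22). Its order over the 10 groups put both 4 h Jurkat groups first, WT OVA at 4 h next at 22.6 ± 1.93 CPM and untreated KO last at 7.98 ± 0.417 CPM, and the 6 groups from KO OVA at 4 h to untreated WT overlapped their neighbours.

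Casp1, which encodes the protease of the canonical inflammasome, and Gsdmd, its pore-forming substrate, rose together. Casp1 was at 54.4, 54.3 and 50.04 CPM in untreated WT libraries and at 143, 159 and 141 CPM after 4 h with Jurkat cells. In KO libraries it was at 44.8, 43.3 and 43.4 CPM and then at 112, 105 and 111 CPM. These are a 2.79-fold rise in WT (log2 1.48, SE 0.05, FDR 3.82e-21) and a 2.49-fold rise in KO (log2 1.32, SE 0.05, FDR 8.72e-20), with no overlap between treated and untreated libraries. Gsdmd was at 119, 130 and 131 CPM in untreated WT and at 293, 321 and 308 CPM after treatment. In KO it was at 105, 112 and 112 CPM and then at 267, 253 and 267 CPM. Its rise was 2.43-fold in WT (log2 1.28, SE 0.05) and 2.39-fold in KO (log2 1.26, SE 0.05), again without overlap.

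Among the sensors, Nlrp3 rose about as far as Casp1. It stood at 68.8, 72.7 and 72.4 CPM in untreated WT and at 193, 211 and 193 CPM after 4 h with Jurkat cells. In KO it went from 65.3, 65.8 and 64.3 CPM to 209, 187 and 187 CPM. The log2 fold change was 1.48 (SE 0.05) in WT and 1.57 (SE 0.05) in KO, and the treated WT and KO libraries overlapped each other. Nlrc4, the sensor that works with NAIP proteins on flagellin and secretion-system parts, rose from 21.9 ± 0.888 to 32.4 ± 1.52 CPM in WT (log2 0.57, SE 0.05), and in KO by 0.53 on the log2 scale. Nlrp1b, a sensor activated by anthrax lethal factor, fell from 20.9 ± 0.646 to 13.8 ± 0.987 CPM in WT (log2 -0.59, SE 0.07), with a log2 value of -0.52 for KO.

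Pycard was the member that fell most. Its 3 untreated WT libraries held 113, 118 and 112 CPM and the 3 given Jurkat cells for 4 h held 46.2, 49.3 and 49.7 CPM. KO libraries went from 111, 120 and 117 CPM to 52.5, 48.6 and 48.6 CPM. The 6 treated libraries lay below all 24 others, which ran from 102 to 131 CPM, and the 8 other groups overlapped their neighbours in order. The log2 fold change was -1.24 (SE 0.05, FDR 2.08e-19) in WT and -1.22 (SE 0.05, FDR 3.30e-19) in KO, which leaves 42.3% and 43.1% of the untreated level. Nek7 fell much less, to 89.0% in WT (log2 -0.17, SE 0.05, FDR 0.00589) and 83.2% in KO (log2 -0.27, SE 0.05, FDR 6.28e-05). The treated WT libraries of Nek7, at 108 to 124 CPM, overlapped the untreated ones, at 123 to 140 CPM, and the WT call was lost with DESeq2's size factors, in DESeq2 and with the stricter filter, and without 1 treated (replicate 3) or 1 untreated library (replicate 1).

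Scaling touches these sizes. TMM factors were 0.765 to 0.842 in the 4 h Jurkat libraries and 1.03 to 1.07 in the others, and when libraries were scaled to their totals alone, the median over all genes moved to a log2 value of -0.42 in WT and -0.37 in KO. Under that scaling all 8 members kept their call and direction in both genotypes. Casp4 was then at a log2 fold change of 4.29 in WT, Nlrp3 at 1.08, Casp1 at 1.07, Gsdmd at 0.88, Nlrc4 at 0.16, Pycard at -1.64, Nlrp1b at -0.997 and Nek7 at -0.57 (FDR 1.99e-11), where Nlrp1b and Nek7 were at -0.59 and -0.17 with TMM. Relative to the shifted median, Casp4, Nlrp3, Casp1 and Gsdmd were above it and Pycard below it under both scalings.

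**Figure D2:**
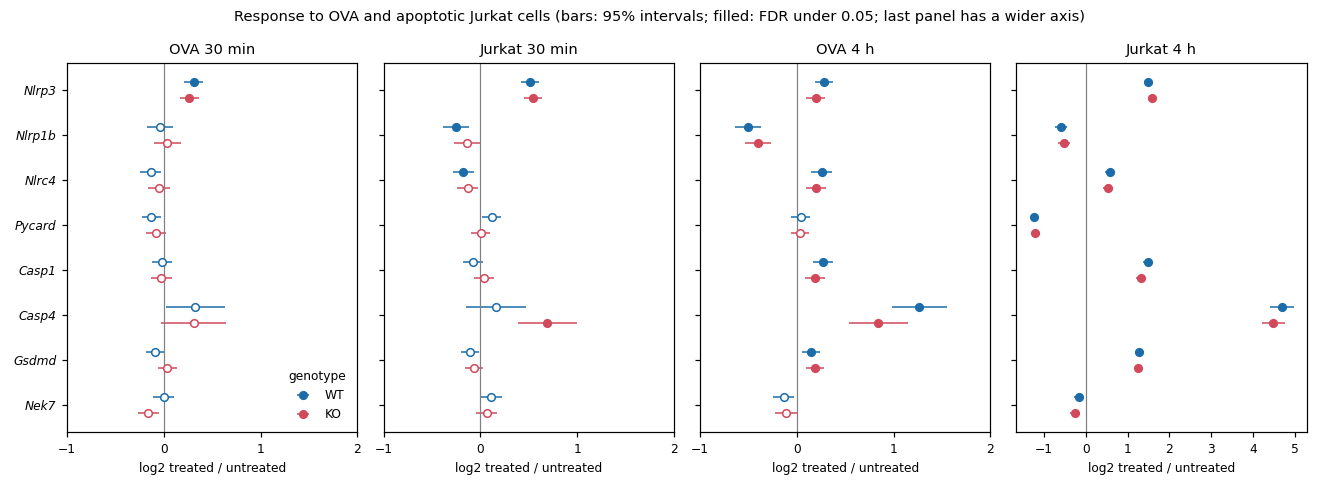
Log2 fold change of each member against untreated cells of the same genotype (x axis), WT in blue and KO in red, with 95% intervals and filled points where the FDR was under 0.05. After 4 h with Jurkat cells Casp4 stood at 4.69 in WT and 4.48 in KO, and Pycard at -1.24 and -1.22.

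Counts of 2 members in 1 library can be set against each other with no scaling between libraries. The ratio of Casp4 to Casp1 counts was 0.178 ± 0.00830 in untreated WT and 1.65 ± 0.0666 after 4 h with Jurkat cells, and in KO it went from 0.182 ± 0.00588 to 1.64 ± 0.00651. The ratio of Nlrp3 to Pycard counts went from 0.623 ± 0.0205 to 4.12 ± 0.208 in WT and from 0.563 ± 0.0246 to 3.89 ± 0.0847 in KO. Gsdmd to Pycard counts went from 1.11 ± 0.0598 to 6.35 ± 0.156 in WT and from 0.946 ± 0.0128 to 5.26 ± 0.208 in KO. The treated and untreated ranges did not overlap for any of these ratios. RNA of the sensor and of the pore-former therefore increased relative to RNA of the adaptor in all 6 libraries given Jurkat cells for 4 h.

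**Figure D3:**
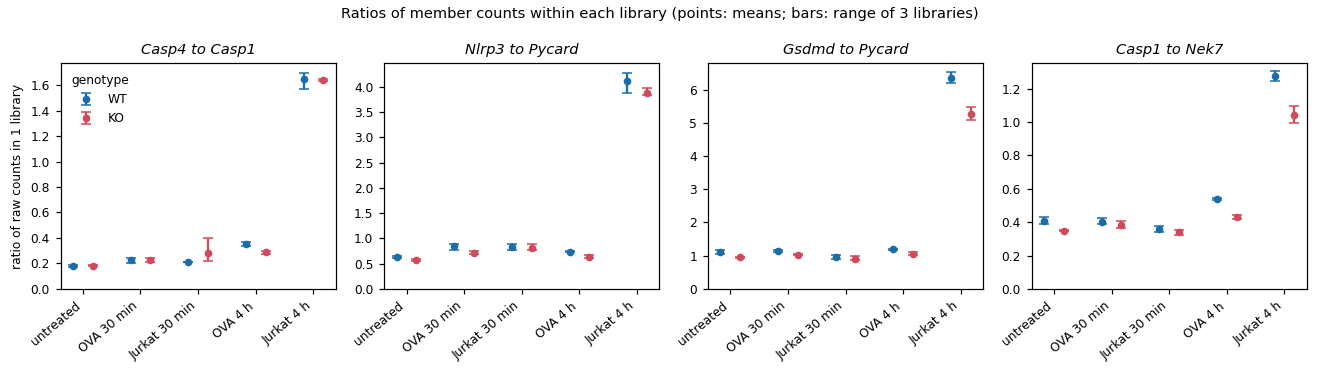
Ratio of the raw counts of 2 members within 1 library (y axis, from 0) by treatment, with WT in blue and KO in red; points are means of 3 libraries and bars their range. After 4 h with Jurkat cells Nlrp3 to Pycard reached 4.12 in WT and 3.89 in KO, and Casp4 to Casp1 reached 1.65 and 1.64.

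With OVA protein at 4 h 6 of the 8 members were called against untreated cells in each genotype. Of all genes tested 23.5% were called in WT and 11.6% in KO. The same 5 genes that rose with Jurkat cells rose here by less, Nlrp1b fell, and Pycard and Nek7 did not pass the test. Casp4 went from the untreated values above to 24.5, 22.8 and 20.6 CPM in WT and to 13.9, 13.7 and 15.4 CPM in KO. No treated library overlapped the untreated ones. This is a 2.41-fold rise in WT (log2 1.27, SE 0.14, FDR 6.50e-08) and a 1.79-fold rise in KO (log2 0.84, SE 0.15, FDR 0.000240). Casp1 rose to 64.0 ± 2.63 CPM in WT (log2 0.27) and to 49.99 ± 1.57 CPM in KO (log2 0.19), and Gsdmd by a log2 fold change of 0.14 in WT and 0.19 in KO. Nlrp3 rose by 0.28 in WT and 0.19 in KO on the log2 scale, Nlrc4 by 0.26 and 0.20, and Nlrp1b changed by -0.50 and -0.40. Pycard stood at log2 values of 0.04 in WT and 0.03 in KO, with 95% intervals of -0.06 to 0.14 and -0.06 to 0.13. Nek7 stood at -0.13 in WT (95% interval -0.24 to -0.02, FDR 0.0708), without overlap. In KO it was at -0.11 (FDR 0.197), with overlap. The WT value of Nek7 was called in DESeq2 (FDR 0.0465), with total counts (FDR 0.0297) and without untreated replicate 3 (FDR 0.0398). Leaving out 1 library ended the calls of Gsdmd in WT (OVA replicate 2 or untreated replicate 1), and in KO those of Nlrp3 (OVA replicate 1), Nlrc4 (untreated replicate 2) and Casp1 (OVA replicate 3 or untreated replicate 2 or 3).

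At 30 min Nlrp3 was the member called in both genotypes with both treatments. With OVA it stood at 90.8, 88.2 and 85.5 CPM in WT and at 74.0, 79.7 and 82.0 CPM in KO. With Jurkat cells it stood at 104, 99.0 and 102 CPM in WT and at 97.8, 93.6 and 93.5 CPM in KO. All these libraries were above the untreated libraries of their genotype. The log2 fold changes were 0.31 (SE 0.05, FDR 6.04e-05) and 0.26 (SE 0.05, FDR 0.00138) with OVA, and 0.51 (SE 0.05, FDR 2.15e-09) and 0.54 (SE 0.05, FDR 1.19e-09) with Jurkat cells, WT first. With OVA, Nlrp3 was the only member called in either genotype, 1 of 8 beside 10.7% of all genes in WT and 3.77% in KO. Casp4 held 12.8, 10.6 and 11.9 CPM in WT with OVA at 30 min and 9.88, 10.1 and 9.27 CPM in KO, above all untreated libraries of the genotype. Its log2 values of 0.33 (SE 0.15, FDR 0.170) and 0.31 (SE 0.16, FDR 0.347) did not pass the test, and the WT value was called in a fit of the compared groups alone (0.32, FDR 0.0355). With Jurkat cells 3 of 8 were called in WT, where 28.7% of all genes were, and 2 of 8 in KO, beside 17% of all genes. In WT these were Nlrp3, Nlrp1b at 17.6 ± 0.936 CPM (log2 -0.25, FDR 0.00528) and Nlrc4 at 19.4 ± 0.511 CPM (log2 -0.18, FDR 0.0124), the last not called without untreated replicate 2. Nlrc4 was thus lower at 30 min and higher at 4 h with Jurkat cells in WT.

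The second call in KO cells at 30 min was Casp4, and it leans on 1 library. KO libraries given Jurkat cells for 30 min held 18.8, 9.52 and 10.5 CPM of Casp4, so replicate 1 stood apart from replicates 2 and 3. The log2 fold change against untreated KO cells was 0.69 (SE 0.15, FDR 0.00148) with all 3, and 0.325 (FDR 0.0235) without replicate 1. In a fit of the compared groups alone it was 0.70 with an FDR of 0.0770. Other genes moved in that library too: among 10 GTPases of the non-canonical pathway, 6 were called higher than in untreated KO cells with it and 2 without it.

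The response of WT and KO cells was compared directly as a difference of log2 fold changes. None of the 8 members was called in edgeR for OVA at 30 min, Jurkat cells at 30 min, OVA at 4 h or Jurkat cells at 4 h, where 0%, 0.00675%, 0.0405% and 4.26% of all genes were called. DESeq2 also called no member in any of the 4. At an unadjusted p under 0.05 there was 1 member of 8 in each, beside 795, 1098, 1098 and 2823 of 14808 genes in the same order: Nek7 (OVA, 30 min, difference -0.16), Casp4 (Jurkat, 30 min, 0.53, and 0.16 without KO replicate 1), Casp4 (OVA, 4 h, -0.43) and Casp1 (Jurkat, 4 h, -0.16). For Casp4 with OVA at 4 h the 95% interval ran from -0.84 to -0.01 and the FDR was 0.671. For Nlrp3 with Jurkat cells at 4 h the difference was 0.09 (95% interval -0.04 to 0.23) and for Pycard 0.03 (-0.12 to 0.17). These widths show the size of difference the libraries could resolve, and a missed threshold does not show that the genotypes respond alike.

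Apoptotic Jurkat cells and OVA were also compared at matched times, with the genotypes averaged. At 30 min 4 of 8 members were called, beside 29.9% of all genes: Nlrp3 (log2 0.24, SE 0.03), Pycard (0.16, SE 0.03) and Nek7 (0.17, SE 0.04) were higher with Jurkat cells and Nlrp1b (-0.19, SE 0.05) was lower, and of these only Nlrp3 had libraries that did not overlap. At 4 h 7 of 8 were called, beside 82.6% of all genes. Casp4 was 11.6-fold higher with Jurkat cells (log2 3.53, SE 0.09), Nlrp3 2.45-fold, Casp1 2.24-fold, Gsdmd 2.15-fold and Nlrc4 1.25-fold higher, and Pycard stood at 41.6% of its level with OVA. Nlrc4 is the exception to a stable direction, since its value turned to -0.05 on plain totals, where the median over all genes moved to -0.40. Nek7 was called lower at a log2 value of -0.09 and was not called with DESeq2's size factors (-0.03), in DESeq2, with the stricter filter or when any of 4 single libraries was left out, and it stood at -0.46 (FDR 9.71e-13) with total counts. Nlrp1b stood at -0.11 with an FDR of 0.0513. It was called with total counts (-0.47, FDR 1.19e-09), with no filter (-0.14, FDR 0.0154), with the replicate number as a block (-0.11, FDR 0.0303) and when any of 5 single libraries was left out.

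The knockout of Rubcn was compared with WT in each condition. Casp1 was lower in KO cells in all 5 conditions, Gsdmd in 4 and Casp4 in both 4 h conditions, while no member was called higher. Nlrp3 was lower in both OVA conditions, Nek7 was lower with OVA at 30 min, and Nlrp1b, Nlrc4 and Pycard were called in none of the 5. The numbers called were 2 of 8 without treatment beside 9.97% of all genes, 3 with OVA at 30 min beside 12.4%, 2 with Jurkat cells at 30 min beside 9.25%, 4 with OVA at 4 h beside 12.6% and 3 with Jurkat cells at 4 h beside 22.9%. The median log2 difference of the 8 ran from -0.13 to -0.09 over the 5 conditions, where that of all genes tested was within 0.01 of 0.

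Casp1 gave the steadiest difference. Without treatment the WT libraries, at 50.04 to 54.4 CPM, lay above the KO libraries, at 43.3 to 44.8 CPM. The difference was -0.27 (SE 0.05, FDR 0.000661) without treatment, -0.28 (SE 0.05, FDR 0.000788) with OVA at 30 min, -0.16 (SE 0.05, FDR 0.0485) with Jurkat cells at 30 min, -0.36 (SE 0.05, FDR 1.17e-05) with OVA at 4 h and -0.43 (SE 0.05, FDR 5.36e-07) with Jurkat cells at 4 h. In KO cells Casp1 RNA thus stood at 74.0% to 89.5% of the WT level. WT and KO libraries did not overlap in 4 of the 5 conditions. They overlapped with Jurkat cells at 30 min, at 46.7 to 54.8 CPM in WT and 43.4 to 46.7 CPM in KO, and there the call was lost in a fit of the compared groups alone (FDR 0.159) and without WT replicate 1 or 2 or KO replicate 2 or 3. Its ratio to Nek7 counts, which needs no scaling between libraries, was 1.28 ± 0.0283 in WT and 1.04 ± 0.0520 in KO after 4 h with Jurkat cells, with no overlap. The ranges of this ratio also lay apart without treatment (0.388 to 0.430 in WT, 0.346 to 0.352 in KO) and with OVA at 4 h (0.536 to 0.546 and 0.419 to 0.442). They overlapped with OVA at 30 min (0.391 to 0.428 and 0.364 to 0.407) and with Jurkat cells at 30 min (0.342 to 0.378 and 0.324 to 0.354). Nek7 was itself called lower in KO with OVA at 30 min (log2 -0.20, FDR 0.0145), so the ratio holds the shifts of both genes. Without KO replicate 2 the Casp1 difference after 4 h with Jurkat cells was -0.41 (FDR 1.78e-05).

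Gsdmd, the pore-former, was lower in KO by a log2 value of -0.21 (SE 0.05, FDR 0.00287) without treatment, -0.16 (SE 0.05, FDR 0.0235) with Jurkat cells at 30 min, -0.16 (SE 0.05, FDR 0.0168) with OVA at 4 h and -0.23 (SE 0.05, FDR 0.000487) with Jurkat cells at 4 h. With OVA at 30 min it stood at -0.08 (FDR 0.275) and the libraries overlapped. The call with OVA at 4 h was lost with scaling to total counts (-0.13, FDR 0.0529) and without WT replicate 2 or KO replicate 3. The call with Jurkat cells at 30 min was lost when any of 5 single libraries was left out, all but KO replicate 1. Without KO replicate 2 the value with Jurkat cells at 4 h was -0.20 (FDR 0.00633). Over the 5 conditions KO stood at 85.3% to 94.6% of WT.

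Casp4 had the widest gap at 4 h. With OVA the WT libraries held 20.6 to 24.5 CPM and the KO libraries 13.7 to 15.4 CPM, and with Jurkat cells they held 225 to 266 and 171 to 184 CPM, without overlap in either. The differences were -0.66 (SE 0.13, FDR 0.000817) and -0.44 (SE 0.11, FDR 0.00330), which puts KO at 63.3% and 73.5% of WT. Without KO replicate 2 the second was -0.41 (FDR 0.0215). Without treatment the value was -0.23 (SE 0.16, FDR 0.418), with libraries that did not overlap. With OVA at 30 min it was -0.25 (SE 0.16, FDR 0.314), again without overlap. With Jurkat cells at 30 min it was 0.30 (SE 0.14, FDR 0.219), and -0.07 (FDR 0.715) without KO replicate 1, the library that stood apart. Without KO replicate 2 of Jurkat cells at 30 min it was instead called higher in KO (0.48, FDR 0.0303).

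Of the other members, Nlrp3 was at 88.7% of WT with OVA at 30 min (log2 -0.17, FDR 0.0170) and at 86.1% with OVA at 4 h (log2 -0.22, FDR 0.00189). It did not pass the test without treatment (-0.13, FDR 0.0849), although DESeq2 called it there (-0.14, FDR 0.0407), or with Jurkat cells at 30 min (-0.10, FDR 0.196). After 4 h with Jurkat cells its difference was -0.04 with a 95% interval of -0.13 to 0.06. Nek7 was at 87.0% of WT with OVA at 30 min (log2 -0.20, FDR 0.0145). In that condition the calls of Nlrp3 and Nek7 both ended without WT replicate 1 or 2, that of Nlrp3 also without KO replicate 1 and that of Nek7 without KO replicate 2 or 3. With Jurkat cells at 4 h Nek7 was at 90.7% of WT (log2 -0.14, FDR 0.0616), without overlap, and did not pass the test. It was called there in DESeq2 (-0.16, FDR 0.0268), with DESeq2's size factors (-0.16, FDR 0.0355) and without WT replicate 3 (-0.19, FDR 0.0221). Pycard differed by -0.10 to 0.07 over the 5 conditions, Nlrc4 by -0.09 to 0.06 and Nlrp1b by -0.09 to 0.02.

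**Figure D4:**
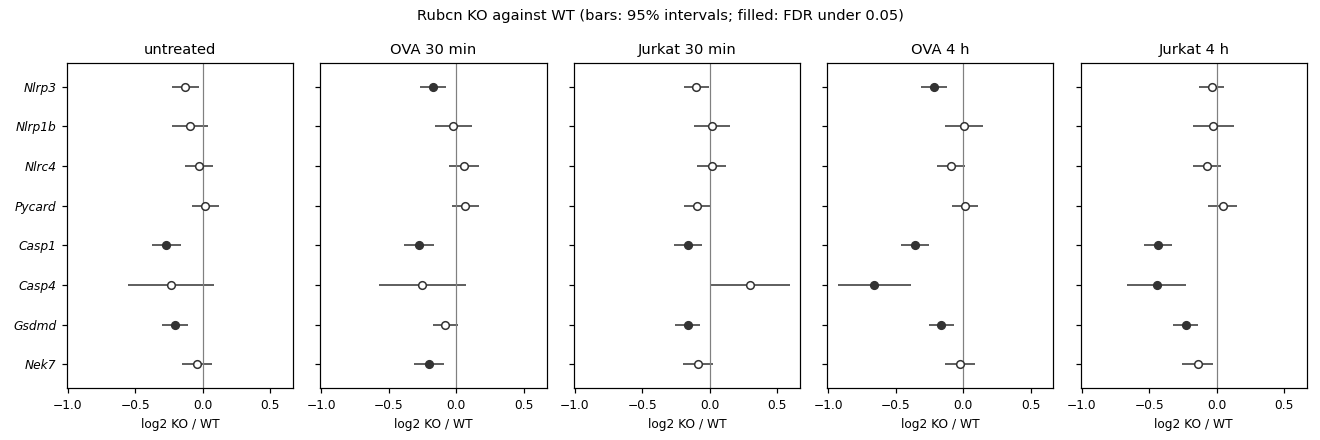
Log2 ratio of KO to WT for each member (x axis) in 5 conditions, with 95% intervals and filled points where the FDR was under 0.05. Casp1 lay below 0 and was filled in all 5 panels, from -0.16 to -0.43, and Casp4 was filled in both 4 h panels, at -0.66 and -0.44.

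Markers of other cells moved with genotype in the same libraries. The sum of 10 plasmacytoid dendritic cell markers was lower in KO in every condition without overlap, at 81.6% to 90.1% of WT, for example 2766 to 2944 against 3178 to 3238 CPM without treatment. The sum of 10 neutrophil markers was at 82.3% to 87.2% of WT, overlapping only without treatment, with Ly6g near 0 in both genotypes. The sum of 8 basophil or mast cell markers was higher in KO, at 195% to 294% of WT, and that of 8 stromal markers at 135% to 154%, neither with overlap. The sum of 12 conventional dendritic cell markers was at 101% to 104% of WT, without overlap for Jurkat cells at 30 min and OVA at 4 h, and that of 10 monocyte or macrophage markers at 95.1% to 103%, with overlap in all 5 conditions. Single markers within these sums were called all the same: of the 10 monocyte or macrophage genes 2, 4, 2, 5 and 4 were lower in KO and 1, 0, 0, 0 and 1 higher, and of the 12 conventional dendritic cell genes 3, 2, 1, 3 and 1 were lower and 3, 1, 2, 2 and 4 higher, in the order untreated, OVA and Jurkat cells at 30 min, OVA and Jurkat cells at 4 h. Without KO replicate 1 of Jurkat cells at 30 min the conventional dendritic cell counts there were 1 lower and 1 higher. With 3 libraries against 3 the two-sided exact permutation test cannot go below p = 0.1, which is the value for each sum without overlap. The T-lineage sum with Jurkat cells was also lower in KO, 14.9 against 23.4 CPM at 30 min without overlap and 47.8 against 66.6 CPM at 4 h with overlap. The part of these shifts in the differences of Casp1, Casp4 and Gsdmd was not tested.

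The members' patterns over the 24 libraries other than the 4 h Jurkat libraries were described by Pearson's r of log2 CPM, without a test, since these libraries share groups and genotypes. Casp1 and Gsdmd had r = 0.81, Casp1 and Casp4 0.74, and Nlrc4 and Gsdmd 0.70, while Nlrp3 had r = 0.21 with Casp1 and -0.02 with Gsdmd. Nlrp1b ran opposite to Casp4 at r = -0.67. The closest genes were sought among 9999 others with a mean of 5 CPM or more. Symbols of Gm with a number, symbols ending in Rik and repeat rows of a symbol were left out. Those closest to Casp1 were Tgtp2 (r = 0.96) and Trim30a (0.96), and those closest to Casp4 were Bcl2a1a (0.96) and Traf1 (0.96). Nlrp3 was closest to Ifrd1 (0.96) and Hcar2 (0.93), and Gsdmd to Rasa4 (0.95) and Trafd1 (0.94). For Nlrc4 they were Gsap (0.92) and Apobec3 (0.91), for Nlrp1b Ssh2 (0.92) and Fbxl20 (0.92), and for Nek7 Ddx5 (0.94) and Gpr141 (0.93). With all 30 libraries the value for Nek7 and Ddx5 was -0.17, so that likeness did not extend to the 4 h Jurkat libraries.

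Other genes of the pathway were read from lists given in full by their counts, each to be set against all genes tested. After 4 h with Jurkat cells 38.9% of all genes rose and 40.6% fell in WT, and 37.5% rose and 41% fell in KO. With OVA at 4 h 11.9% rose and 11.7% fell in WT, and 5.94% rose and 5.69% fell in KO. In KO against WT 3.97%, 6.13%, 3.67%, 6.35% and 13.5% of all genes were lower and 6%, 6.25%, 5.58%, 6.22% and 9.37% higher, in the order untreated, OVA and Jurkat cells at 30 min, OVA and Jurkat cells at 4 h. Without KO replicate 2 of Jurkat cells at 4 h the last shares were 9% lower and 6.56% higher. The counts below keep this order.

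Of 10 GTPases listed for the non-canonical pathway, some gather on bacterial membranes and aid caspase-11. All 10 rose after 4 h with Jurkat cells in WT and in KO, with a median log2 fold change of 4.65 and 4.62. With OVA at 4 h 9 rose in each genotype. Gbp5 went from 10.1 ± 0.567 to 727 ± 116 CPM in WT with Jurkat cells (log2 6.17), Gbp2 rose by 4.88 on the log2 scale, and Gm12250, also named Irgb10, went from 11.99 ± 0.613 to 32.6 ± 1.63 CPM in WT with OVA at 4 h (log2 1.44). In KO against WT, 7 of the 10 were lower without treatment, 5 with OVA at 30 min, 10 with OVA at 4 h and 8 with Jurkat cells at 4 h, and none was higher in these conditions. The last count was smaller without KO replicate 2 of Jurkat cells at 4 h, at 2 of 10, with Gbp2 at -0.44 (FDR 0.0854) instead of -0.48 (FDR 0.0234). That fit had fewer libraries, and the share of all genes called lower fell too, from 13.5% to 9%. With Jurkat cells at 30 min 1 of the 10 was lower and 1 higher, and 5 were lower and 0 higher without KO replicate 1. Gbp9 was lower in all 5 conditions, also without either library that stood apart, for example 21.3 ± 1.01 against 30.4 ± 2.55 CPM without treatment.

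Of 13 other sensors 10 were tested, and after 4 h with Jurkat cells in WT 5 rose and 4 fell. Nod1, a sensor of bacterial peptidoglycan, went from 8.60 ± 0.706 to 68.0 ± 5.26 CPM (log2 2.99), and Mefv, which encodes the sensor pyrin, from 4.79 ± 0.332 to 33.6 ± 2.16 CPM (log2 2.81). With OVA at 4 h Mefv rose to 14.5 ± 0.406 CPM (log2 1.60) and Nod1 to 13.4 ± 0.836 CPM (log2 0.64). In KO against WT 3, 5, 1, 4 and 6 of the 10 were lower, and 0, 1, 1, 0 and 1 were higher. Without KO replicate 1 of Jurkat cells at 30 min the third count was 2 lower and 0 higher, and without KO replicate 2 of Jurkat cells at 4 h the last was 5 lower and 1 higher. Naip5, the flagellin receptor that works with NLRC4, was lower in all 5, at 53.1 ± 2.12 against 69.5 ± 1.63 CPM without treatment (log2 -0.39, FDR 1.79e-05).

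Of 14 other caspases and pore-formers 11 were tested, and 8 rose and 3 fell after 4 h with Jurkat cells in WT. Zbp1, a sensor of nucleic acids that starts necroptosis, had a log2 fold change of 4.79, Mlkl, the pore-former of necroptosis, 2.56, and Ninj1, whose product ruptures the plasma membrane late in lytic death, 1.94. With OVA at 4 h Ninj1 went from 33.5 ± 2.37 to 73.7 ± 6.88 CPM in WT (log2 1.14) and Zbp1 from 16.8 ± 1.17 to 38.7 ± 0.210 CPM (log2 1.20). Of the 11, 3 rose and 2 fell with OVA at 4 h in WT. In KO against WT the list had 1, 1, 0 and 1 genes lower in the first 4 conditions, and 6 lower and 1 higher after 4 h with Jurkat cells, where Mlkl was at 27.5 ± 0.359 against 41.2 ± 4.45 CPM (log2 -0.58). Without KO replicate 2 these were 5 lower and 1 higher, and Mlkl was at -0.57 (FDR 1.27e-05). Without KO replicate 1 of Jurkat cells at 30 min 1 gene was lower there, Zbp1 at -0.79 (FDR 7.77e-05), which stood at -0.25 (FDR 0.473) with all 3. Ninj1 was called in none of the 5.

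Of 19 tested activators and inhibitors 4 rose and 12 fell after 4 h with Jurkat cells in WT. Tnfaip3, which encodes the NF-κB inhibitor A20, rose from 58.1 ± 0.621 to 1107 ± 67.8 CPM (log2 4.25). P2rx7, the ATP receptor upstream of NLRP3, fell from 34.5 ± 0.746 to 9.26 ± 0.894 CPM (log2 -1.90), and Card9 from 73.7 ± 3.13 to 14.8 ± 0.732 CPM (log2 -2.32). P2rx7 was higher in KO than in WT at 4 h, by 0.21 with OVA (FDR 0.00349) and by 0.32 with Jurkat cells (FDR 0.000662). Of the list, 1, 0, 2, 3 and 3 genes were higher in KO and 1, 1, 2, 1 and 2 lower, the last 1 without KO replicate 2, where Tnfaip3 was at -0.18 (FDR 0.0774) instead of -0.21 (FDR 0.0163).

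Of 7 substrates and antagonists 5 rose and 2 fell after 4 h with Jurkat cells in WT. Il1a, from 0.505 ± 0.221 to 69.4 ± 3.17 CPM, had a log2 fold change of 7.11 from a starting level near 0. Il1b, from 23.98 ± 1.44 to 953 ± 39.2 CPM, was at 5.31. With OVA at 4 h Il1b had a log2 fold change of 1.27 and Il1rn, which encodes the interleukin-1 receptor antagonist, 1.02. Of the 7, 1, 1, 2, 1 and 2 were higher in KO and 0, 0, 0, 2 and 3 lower, with Il1rn at -0.33 (SE 0.10, FDR 0.0180) after 4 h with Jurkat cells. The third count was 1 higher without KO replicate 1 of Jurkat cells at 30 min. The last was 1 higher and 3 lower without KO replicate 2 of Jurkat cells at 4 h. Il1b was higher in KO than in WT there (log2 0.44, SE 0.14, FDR 0.0215), a call that ended without KO replicate 2 (0.44, FDR 0.0519). With Jurkat cells at 30 min it was at 89.2 ± 30.7 in KO against 47.5 ± 7.58 CPM in WT (log2 0.91, FDR 0.000139), a group that holds the library that stood apart for Casp4, and without that library the difference was 0.61 (FDR 0.000864).

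Of 18 genes of transcriptional control 14 rose and 4 fell after 4 h with Jurkat cells in WT, with Irf7, an interferon regulatory factor, at a log2 value of 4.01 and Nfkbia, a target and inhibitor of NF-κB, at 3.62. With OVA at 4 h 10 of the 18 rose in WT, with Nfkbia at 1.17 and Relb at 0.85. Of these 18 genes 7, 7, 3, 9 and 5 were lower in KO and 0 higher in any condition. The last count was 1 without KO replicate 2 of Jurkat cells at 4 h, where Irf7 was at -0.41 (FDR 0.0871) instead of -0.48 (FDR 0.0169), and the third was 4 without KO replicate 1 of Jurkat cells at 30 min. Without treatment Irf7 was at -1.08 (SE 0.15, FDR 1.29e-05). Of 8 tested membrane repair genes, which encode ESCRT parts that remove gasdermin pores, 3 rose and 2 fell after 4 h with Jurkat cells in WT, with Chmp4b at 1.54 and Chmp2a at 0.48, and in KO against WT 0, 1, 0, 1 and 2 were lower and 0 higher. The third count was 1 without KO replicate 1 of Jurkat cells at 30 min.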

How the data were processed

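Read counts per gene, as whole numbers, came in 1 table that the authors deposited, with symbols, Entrez identifiers and mm10 intervals, per the file headers. The submitters' processing notes name STAR 2.5, Subread, featureCounts 1.5.0-p1, DESeq2 and mm10, without roles; the use of strand is not given in the sources used here. Groups and replicate numbers came from the sample titles. Counts were scaled by TMM and filtered with filterByExpr by group, and 1 edgeR (4.0.16, R 4.3.3) quasi-likelihood model with a mean per group was fitted to all 30 libraries and 14808 genes (common biological coefficient of variation 0.0515), with Benjamini-Hochberg adjustment over all genes and FDR under 0.05 as a call. The script was tested on simulated counts. Depth was 9734778 to 51642601 counts per library, and no pair of replicate libraries agreed within counting noise (lowest chi-square per degree of freedom 2.28, highest 129 and 134, both with KO Jurkat 4 h replicate 2). Alternatives were DESeq2 (1.42.0), its size factors, total counts, no filter and a filter of 5 CPM in 3 libraries, the compared groups alone, the replicate number as a block, and leaving out each library. Members and lists were chosen with earlier results of these data known. All members are named. Of the lists, the genes named are those called one way in all 5 KO against WT comparisons and, per list, the 2 largest changes called in WT at 4 h with each treatment, at 5 CPM or more. The genes most like Pycard are not reported here.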

Additional observations from a re-analysis of the deposited data

How the results depend on the processing

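Of 1160 member values under alternatives other than leaving out a library, 1137 kept direction and call, 9 lost the call, 13 gained one and 1 reversed: Nlrc4 in Jurkat cells against OVA at 4 h, -0.0463 with total counts (0.32 in the main fit). Of 1200 values with 1 library left out, 1152 kept both, 32 lost and 16 gained a call and 0 reversed. In the fit of the compared groups alone the members called were 1 (2 in the main fit) for KO against WT with Jurkat cells at 30 min, 2 (1) for OVA at 30 min in WT and 1 (2) for Jurkat cells at 30 min in KO. With 1 library left out, they ranged from 1 to 3 for KO against WT with OVA at 30 min, 0 to 2 for KO against WT with Jurkat cells at 30 min, 1 to 3 for OVA at 30 min in WT, 2 to 5 for Jurkat cells at 30 min in WT and 1 to 2 for OVA at 30 min in KO. The cause of these moves was not tested. Total counts moved the share of higher genes among all called from 40.9% to 74.8% in KO against WT with Jurkat cells at 4 h, from 50.5% to 63.8% and from 49.5% to 64.5% with OVA at 30 min and 4 h, from 48.9% to 29.0% and from 47.7% to 29.2% for Jurkat cells at 4 h in WT and KO, from 47.7% to 27.4% for Jurkat cells against OVA at 4 h, and from 40.3% to 76.8% for the genotype difference in the response to Jurkat cells at 4 h. Replicate numbers did not pair the libraries: in 0 of 13 pairs of groups did all 3 same-numbered correlations exceed 0.1 (-0.12 to 0.15), and in 15 of 39 comparisons a library correlated best with its own number. With the replicate number as a block across genotypes, Nek7 in KO against WT with Jurkat cells at 4 h gained a call (-0.14, FDR 0.04997), as did Nlrp1b in Jurkat cells against OVA at 4 h (-0.11, FDR 0.0303), and with the block within genotype Nek7 in OVA at 4 h in WT (-0.13, FDR 0.0426) and Nlrc4 in Jurkat cells at 30 min in KO (-0.13, FDR 0.0488); the block changed no other call of a member. With 3 libraries a group only larger differences can be called, and the shallowest library, KO with OVA at 30 min replicate 3, held 9734778 counts.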
